A study of Homo sapiens with 12 samples.

Results

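Gene expression was compared at the end of induction between 22Rv1 sublines expressing a hairpin against HNF4G and a subline expressing a scrambled hairpin, all given doxycycline. The 6 doxycycline arrays of the 12 in the series were chosen by their labels. They were the 4 arrays of the HNF4G hairpin sublines (2 of HNF4Gsh1, here hairpin 1, and 2 of HNF4Gsh2, here hairpin 2), set against the 2 arrays of the scrambled subline (shScr). 22Rv1 is a human prostate carcinoma line that grew out of a xenograft relapsed after castration of its host, and it expresses the androgen receptor. Every subline carried a doxycycline-inducible hairpin, was grown in RPMI with fetal bovine serum, and was harvested after 3 days of doxycycline. The other 6 arrays held the same sublines given vehicle, in the same numbers, and are used below as the measure of how the sublines differed before induction. The doxycycline dose, the promoter of the hairpins and whether a subline was 1 clone or a pool are not given in the sources used here. Hairpin and subline are therefore the same variable in every comparison between sublines. Nothing in the labels says that the replicates came from separate cultures. The p-values therefore reflect the spread between arrays, which may be technical.

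HNF4G is an orphan nuclear receptor closely related to HNF4A. Receptors of this family bind DNA as dimers and maintain the epithelial programs of intestine, liver, kidney and pancreas, among them brush border proteins, plasma proteins and enzymes that conjugate drugs and steroids. In the healthy prostate HNF4G is little expressed, and a subset of prostate cancers, 22Rv1 among them, expresses it together with genes otherwise typical of the gastrointestinal tract. An inducible hairpin is a short RNA that is processed into a small interfering RNA and lowers the transcripts it matches, and can lower others with a similar sequence.

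Total RNA was hybridised to Illumina bead arrays with 47323 probes. Of the 11164 genes tested, each had a probe with a detection p under 0.01 on 2 or more of the 12 arrays. Values are normalized log2 intensities, on which a difference of 1 is a doubling, and each gene is measured by its brightest probe. With doxycycline, the 4 hairpin arrays had median raw intensities of 102.5 to 108.5 and 16501 to 17070 detected probes. The scrambled array of replicate 1 was the dimmest of the series, with a median of 92.5 and 14959 detected probes, and that of replicate 2 had 101.4 and 16827. The 2 arrays of a group correlated at 0.989 to 0.991 across genes. Of 7 luminal prostate markers with a named probe, 6 were detected on all 6 doxycycline arrays and KLK2 on 5. The 4 basal epithelial markers with a named probe were undetected on all of them.

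HNF4G itself had log2 intensities of 4.73 and 4.83 in the hairpin 1 arrays and 4.71 and 4.35 in the hairpin 2 arrays, against 5.81 and 6.19 in the scrambled arrays. All 4 hairpin arrays lay below both scrambled arrays, and the probe was below the detection threshold on all 4. The fitted difference was -1.34 ± 0.15 (SE; adjusted p = 0.00014). Where a gene was undetected on every array of a group, its fold is given as a bound, computed per array against the higher of the dimmest detected probe and the gene's own value. By that measure HNF4G was at least 1.79-fold lower in the hairpin sublines. Without doxycycline its difference between the same sublines was 0.11, and the change of the difference, -1.45, passed the test (adjusted p = 0.00803). The control genes ACTB, GAPDH and B2M differed by 0.07, -0.10 and 0.08, none past the threshold, and HNF4A was not among the genes tested.

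Across all genes, 622 passed the threshold of an adjusted p under 0.05, which is 5.57% of those tested. Of these, 336 were higher in the HNF4G hairpin arrays (3.01%) and 286 were lower (2.56%). Rise and fall below mean higher and lower in the hairpin than in the scrambled doxycycline arrays, and not a change with induction. Of 121 genes that differed by more than 2-fold, 78 were lower and 43 higher, and the differences ran between -3.45 for AKR1C3 and 2.10 for SLC20A2. The 4 hairpin arrays lay on one side of both scrambled arrays for 595 of the 622, against 25.2% of all genes tested (14.2% above and 11.1% below). The calls were made on these same arrays, so the separation follows largely from the call and adds no support to it. Taking the 4 hairpin arrays as 1 group in a fit of the 6 doxycycline arrays alone gave 222 calls, 109 higher and 113 lower, since differences between the hairpins then count as spread. Without the scrambled doxycycline array of replicate 1 the count was 214, 96 higher and 118 lower, and without that of replicate 2 it was 330, 176 higher and 154 lower. Scaling to a common median in place of quantile normalization left 622 calls but put 252 higher and 370 lower. None of the 622 genes changed sign under any of these settings. Of 218 further probes of called genes, 190 had the same sign (87.2%), 64 passed in the same direction and 0 in the opposite one, in a limma fit over all kept probes.

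The steroid-metabolizing enzymes held the largest falls. Of 23 measured genes of steroid metabolism and glucuronidation, 8 fell and 1 rose, with a median difference of -0.10 against 0.02 over all genes. AKR1C3, which reduces androstenedione to testosterone, had log2 intensities of 6.12 and 6.85 with hairpin 1 and 6.96 and 7.22 with hairpin 2, against 10.33 and 10.15 with the scrambled hairpin. The groups were more than 2 log2 units apart, and the fitted difference was -3.45 ± 0.20 (SE; adjusted p = 2.42e-07). AKR1C4, a steroid and bile acid reductase best known from liver, had 5.65 and 5.81 with hairpin 1 and 6.34 and 5.84 with hairpin 2, against 9.37 and 9.15 with the scrambled hairpin. It fell by 3.35 ± 0.16 on the log2 scale (adjusted p = 8.90e-08). AKR1C2, which inactivates dihydrotestosterone, had 6.77 and 6.66 with hairpin 1 and 6.91 and 6.59 with hairpin 2, against 9.18 and 9.71 with the scrambled hairpin. Its difference was -2.71 ± 0.16 (adjusted p = 3.24e-07).

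The androgen-conjugating glucuronosyltransferases fell alongside these reductases. UGT2B17 had 5.08 and 4.48 with hairpin 1 and 5.26 and 4.77 with hairpin 2, against 8.07 and 8.18 with the scrambled hairpin, a difference of -3.23 ± 0.20. UGT2B15 had 4.75 and 4.64 with hairpin 1 and 4.65 and 4.71 with hairpin 2, against 7.51 and 7.53 with the scrambled hairpin. It was undetected on all 4 hairpin arrays and at least 5.15-fold lower there. The bilirubin-conjugating UGT1A1 was likewise undetected in the hairpin arrays (4.37 to 4.68, against 6.47 and 6.23) and at least 2.28-fold lower. It was also undetected in the hairpin arrays without doxycycline, at 4.43 to 4.92, against 5.64 and 5.68 in the uninduced scrambled arrays. UGT2B11 and UGT2B10 fell by 1.39 and 0.89 on the log2 scale. Without doxycycline they already differed by -1.35 and -1.17. HSD17B10, a mitochondrial dehydrogenase, rose by 0.59 and lost its call when either scrambled doxycycline array was left out (adjusted p = 0.133 and 0.117), while 8 members still fell. Members of the AKR1C and UGT2B families are close in sequence, and how far their probes measure each other's transcripts was not tested. UGT1A1 likewise shares exons with the other UGT1A genes. Of the 8 genes that fell, 7 were also lower in the hairpin sublines without doxycycline by the same test. AKR1C3 was the exception, with a difference of -0.89 there (adjusted p = 0.0588). The test of the change of the difference passed for 3 genes of the list, AKR1C3, AKR1C4 and UGT2B15. By that test AKR1C2, UGT2B17 and UGT1A1 did not pass (adjusted p = 0.3505, 0.104 and 0.175).

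**Figure D1:**
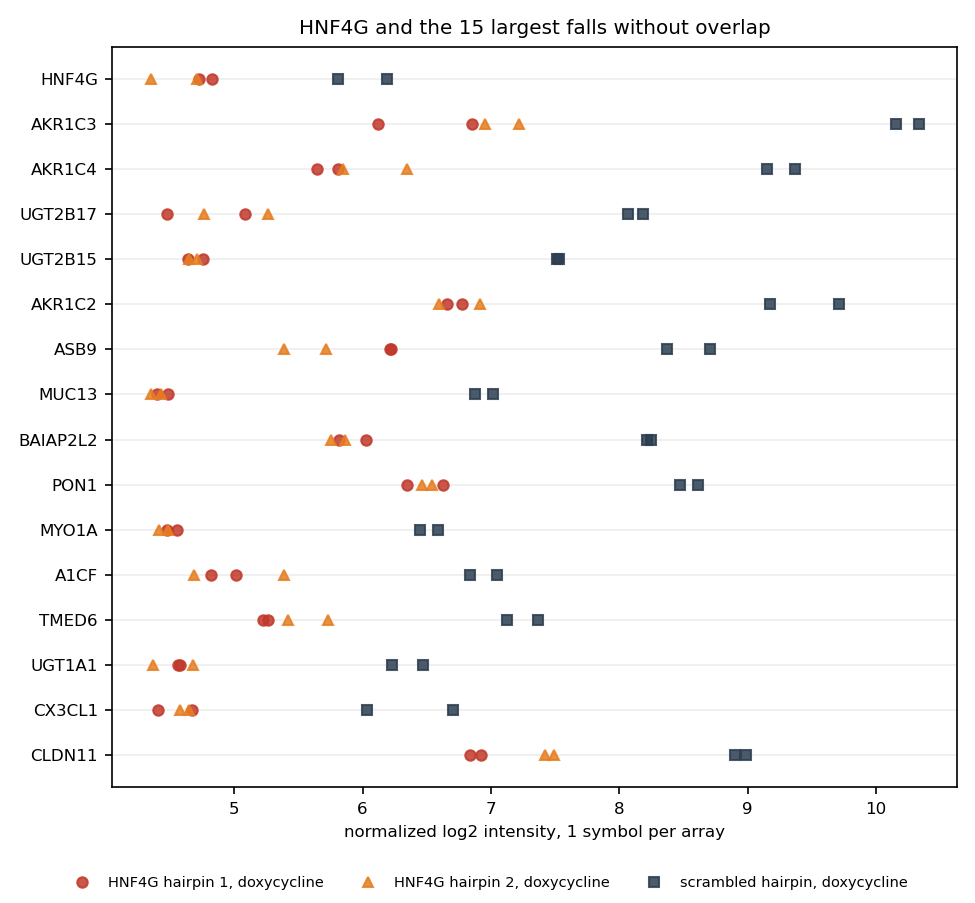
Normalized log2 intensity of HNF4G and of the 15 genes with the largest falls past the threshold among those whose groups did not overlap, one symbol per doxycycline array, with hairpin 1 as circles, hairpin 2 as triangles and the scrambled hairpin as squares. By this choice both scrambled arrays sit to the right of all 4 hairpin arrays in these 15, and the gap is widest for AKR1C3, whose fitted difference was -3.45.

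Genes of intestinal and gastric epithelium fell too. Of 15 measured members 6 fell and 0 rose, with a median difference of -0.50. The median was -0.17 without background correction and -0.20 on the series matrix values, and 9 members fell with scaling to a common median. MUC13, a transmembrane mucin of the gut surface, had 4.40 and 4.48 with hairpin 1 and 4.35 and 4.43 with hairpin 2, against 6.88 and 7.01 with the scrambled hairpin. It was undetected on all 4 hairpin arrays and at least 3.45-fold lower (difference -2.53 ± 0.17, adjusted p = 8.98e-07). MYO1A, the motor protein that ties microvillar actin to the brush border membrane, had 4.47 and 4.55 with hairpin 1 and 4.48 and 4.42 with hairpin 2, against 6.59 and 6.45 with the scrambled hairpin. It too was undetected in the hairpin arrays, and at least 2.57-fold lower.

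BAIAP2L2, a membrane-bending protein of intestine and kidney epithelium, had 5.82 and 6.03 with hairpin 1 and 5.76 and 5.86 with hairpin 2, against 8.25 and 8.21 with the scrambled hairpin. A1CF, a cofactor of apolipoprotein B messenger RNA editing, ranged over 4.68 to 5.38 in the hairpin arrays, against 7.04 and 6.83 in the scrambled arrays. Neither gene's groups overlapped, and the differences were -2.37 ± 0.13 and -1.97 ± 0.18. SPINK1, a secreted trypsin inhibitor made in pancreas and gut and in a subset of prostate cancers, stayed bright, with 10.57 and 10.53 with hairpin 1 and 11.18 and 11.05 with hairpin 2, against 12.02 and 12.17 with the scrambled hairpin. It fell by 1.26 ± 0.16 on the log2 scale (adjusted p = 0.00037). VIL1, the brush border protein villin, fell by 1.17. Summed over the measured members, the linear intensity of this list was 8125 to 8944 in the hairpin arrays and 13070 to 13370 in the scrambled arrays. Such a sum is weighted to bright members, SPINK1 among them. In RNA from whole cultures, fewer cells expressing a gene and less of its RNA per cell cannot be told apart.

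The starts of MUC13 and MYO1A are shown because, among the 215 lower genes with a promoter in the table used, they alone held CAAAGTCCA, a core of the element that HNF4 receptors bind, within 250 bases before to 50 after an annotated start (either strand). The sequences are from RefSeq (GRCh38.p14), on the gene's strand, with the match in capitals, which reads TGGACTTTG on this strand. The MUC13 window is chr3:124934702-124935001 on the minus strand, with the match 51 bases before the start. That of MYO1A is chr12:57050080-57050379 on the minus strand, around the second start listed for the gene, with the match 30 bases before it.
MUC13: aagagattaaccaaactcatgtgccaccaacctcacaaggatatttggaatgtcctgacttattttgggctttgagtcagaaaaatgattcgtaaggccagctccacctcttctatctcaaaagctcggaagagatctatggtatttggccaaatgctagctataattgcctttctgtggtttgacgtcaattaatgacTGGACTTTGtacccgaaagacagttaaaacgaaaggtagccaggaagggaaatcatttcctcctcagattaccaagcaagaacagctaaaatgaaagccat
MYO1A: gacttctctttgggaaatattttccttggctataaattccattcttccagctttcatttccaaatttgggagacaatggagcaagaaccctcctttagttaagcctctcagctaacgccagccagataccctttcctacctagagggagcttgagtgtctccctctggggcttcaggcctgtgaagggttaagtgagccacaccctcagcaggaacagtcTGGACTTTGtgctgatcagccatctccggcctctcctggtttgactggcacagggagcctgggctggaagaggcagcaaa
The share of promoters with this match was 0.93% among lower genes (2 of 215), 0.709% among higher genes (2 of 282) and 0.431% among all genes tested (39 of 9047). The shorter CAAAGTC, which the longer motif contains, was found in 3.26% of lower genes, 4.26% of higher genes and 3.35% of genes tested. A match describes the letters in these windows, and binding was not measured here.

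Liver products fell as well. Of 8 measured hepatic secreted proteins, 3 fell and 0 rose, with a median difference of -0.67. Without background correction and on the series matrix values 6 fell, with medians of -0.38 and -0.41. PON1, the lipoprotein-bound paraoxonase, had 6.63 and 6.34 with hairpin 1 and 6.54 and 6.46 with hairpin 2, against 8.61 and 8.47 with the scrambled hairpin (difference -2.05 ± 0.15). Albumin (ALB) had 9.54 and 9.76 with hairpin 1 and 9.79 and 9.84 with hairpin 2, against 11.02 and 11.10 with the scrambled hairpin (difference -1.32 ± 0.13). The lipid carrier APOE was undetected in the hairpin arrays, with 4.32 to 4.79 against 5.88 and 5.51 in the scrambled arrays, and at least 1.45-fold lower. It was undetected on all arrays without doxycycline, at 4.46 to 4.87 in the hairpin sublines and 5.18 and 5.02 in the scrambled subline. A further probe each for PON1, ALB and A1CF passed the threshold in the same direction, with differences of -1.62, -1.63 and -2.05. APOC1 had a difference of -0.65 that did not pass (adjusted p = 0.0794).

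Metallothioneins, small cysteine-rich proteins that bind zinc and copper, also fell. Of 22 measured metallothioneins and zinc transporters 6 fell and 0 rose, and all 6 were metallothioneins (MT1H, MT1G, MT1E, MT2A, MT1F and MT1X). MT1H had 6.20 and 6.42 with hairpin 1 and 7.36 and 7.35 with hairpin 2, against 8.32 and 8.64 with the scrambled hairpin. The fall was deeper with hairpin 1, and the difference between the hairpins, -1.05, passed its own test (adjusted p = 0.00615). MT1F likewise differed by -1.61 with hairpin 1 and by -0.66 with hairpin 2, and the same test passed (adjusted p = 0.013). MT1G had 9.47 and 9.19 with hairpin 1 and 10.05 and 9.85 with hairpin 2, against 10.91 and 10.88 with the scrambled hairpin. MT2A ranged over 10.20 to 10.71 in the hairpin arrays, against 11.77 and 11.68 in the scrambled arrays, with a difference of -1.29 ± 0.17. None of the 6 differed past the threshold without doxycycline, where MT1G differed by -0.02 and MT1F by 0.33. These genes are also near-identical in sequence, and cross-hybridisation between their probes was not tested.

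**Figure D2:**
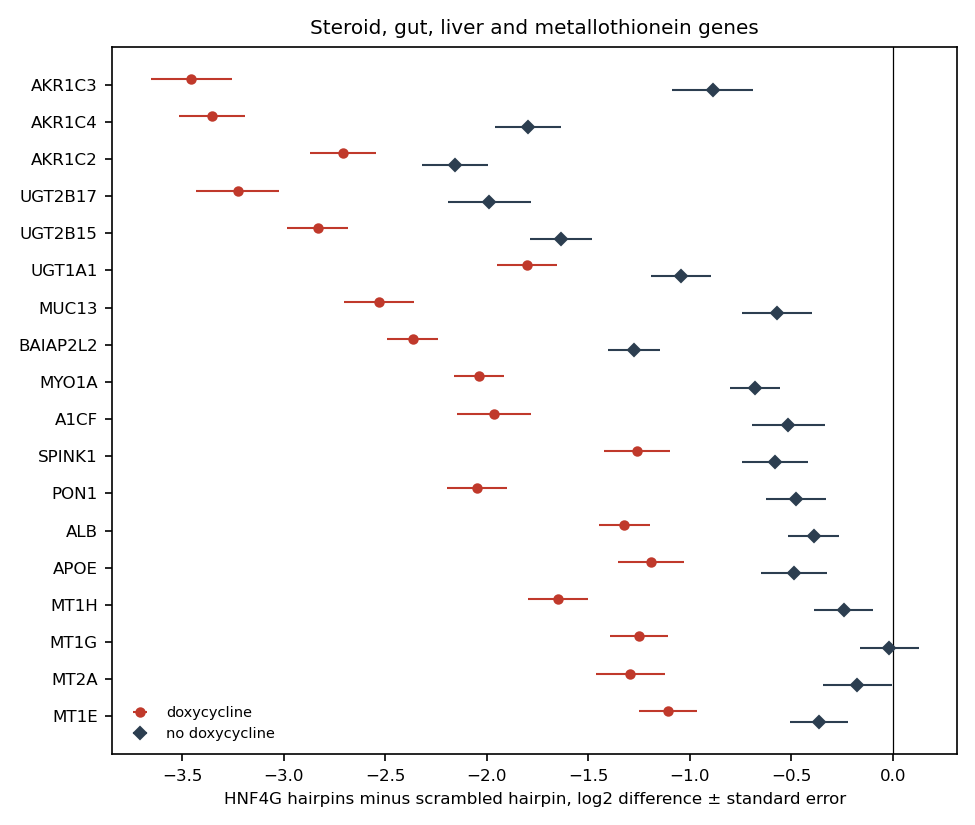
Difference in log2 intensity, HNF4G hairpin sublines minus scrambled subline, with doxycycline (circles) and without (diamonds), for named steroid, gut, liver and metallothionein genes; bars are the standard error of the fit. The circles lie to the left of the diamonds in all 18 genes shown, and the diamonds of the AKR1C and UGT2B genes lie further below 0 than those of the metallothioneins.

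Among other large falls, ASB9, the substrate-binding subunit of a cullin ubiquitin ligase, had 6.22 and 6.22 with hairpin 1 and 5.71 and 5.39 with hairpin 2, against 8.37 and 8.70 with the scrambled hairpin. It was 6.29-fold lower (difference -2.65 ± 0.20, adjusted p = 2.27e-06). CLDN11, a tight junction claudin, had 6.83 and 6.92 with hairpin 1 and 7.42 and 7.49 with hairpin 2, against 8.90 and 8.99 with the scrambled hairpin. The membrane-bound chemokine CX3CL1 was undetected in the hairpin arrays (4.41 to 4.67, against 6.03 and 6.71) and at least 2.31-fold lower. TMED6, a cargo receptor of the early secretory pathway, fell by 1.84 ± 0.14 on the log2 scale. CA12, a membrane carbonic anhydrase, had a difference of -1.24 ± 0.13, while its other kept probe differed by -0.47 and did not pass. Without doxycycline CA12 differed by -1.18 and TMED6 by -1.04, both past the threshold. By the test of the change of the difference neither passed (adjusted p = 0.9155 and 0.1377). ANXA2, a calcium-dependent membrane-binding annexin, had a difference of -1.47 ± 0.14, and one of -1.06 without doxycycline that also passed. It was the 1 fall among 14 annexins and S100 proteins, of which ANXA1 and S100A13 rose. S100A13 lost its call when either scrambled doxycycline array was left out (adjusted p = 0.112 and 0.19), and another of its probes differed by -0.21. The cell adhesion gene NFASC differed by -1.33 ± 0.16 at its brightest probe, while its other kept probe differed by -0.17 and did not pass. Of 34 adhesion genes, CLDN11, NFASC and CEACAM6 fell and DSP, PCDH7 and ITGA5 rose. CEACAM6 (-0.98) lost its call without the scrambled doxycycline array of replicate 2 (adjusted p = 0.115), and DSP (0.71) without that of replicate 1 (adjusted p = 0.135). The list had 1 rise when either of these arrays was left out.

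The largest rise was that of SLC20A2, a sodium-dependent phosphate importer. It had 8.48 and 8.74 with hairpin 1 and 8.78 and 8.88 with hairpin 2, against 6.61 and 6.63 with the scrambled hairpin, a 4.28-fold higher level (difference 2.10 ± 0.15, adjusted p = 1.33e-06). ANXA1, an annexin involved in the control of inflammation, had 7.42 and 7.61 with hairpin 1 and 7.02 and 7.37 with hairpin 2, against 5.59 and 6.15 with the scrambled hairpin. It rose by 1.48 ± 0.19, while ANXA2 of the same family was lower in the same arrays. MAPRE3, which binds growing microtubule ends, had 6.89 and 6.74 with hairpin 1 and 6.65 and 6.73 with hairpin 2, against 5.44 and 5.11 with the scrambled hairpin, where it was undetected. It was at least 2.70-fold higher in the hairpin sublines. Of the 336 higher genes, 67 were undetected on both scrambled arrays, and of the 286 lower genes 32 were undetected on all 4 hairpin arrays. These counts cannot be set against each other, since they require different numbers of undetected arrays. One of the scrambled arrays was also the dimmest of the series, and no share over all genes tested is given.

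ANKRD52, a regulatory subunit of a serine/threonine phosphatase, had 6.65 to 6.76 in the hairpin arrays, against 4.93 and 5.52 in the scrambled arrays. FOLH1, the prostate-specific membrane antigen, had 8.77 and 8.95 with hairpin 1 and 9.53 and 9.43 with hairpin 2, against 7.72 and 7.86 with the scrambled hairpin. VIM, the intermediate filament protein vimentin, had 9.67 and 9.54 with hairpin 1 and 10.08 and 10.04 with hairpin 2, against 8.68 and 8.50 with the scrambled hairpin. The groups were separate in each of these genes, with differences of 1.48, 1.38 and 1.24. The proteoglycan LUM, the receptor TNFRSF19, the dermatan sulfate epimerase homologue DSEL and the phosphatase DUSP8 rose by 1.24 to 1.41. So did PLPPR2, of the phospholipid phosphatase family, by 1.31, and the long noncoding RNA LINC00623, by 1.24. DAPL1 had a difference of 1.38 that lost its call without the scrambled doxycycline array of replicate 2 (adjusted p = 0.0522). Of the 15 largest rises and 15 largest falls among genes whose groups did not overlap, the other 14 rises and all 15 falls passed in each of the 12 fits that left out 1 array. CPLX3, with a larger difference than DAPL1, is not among these rises, since its hairpin 1 arrays overlapped the scrambled arrays.

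**Figure D3:**
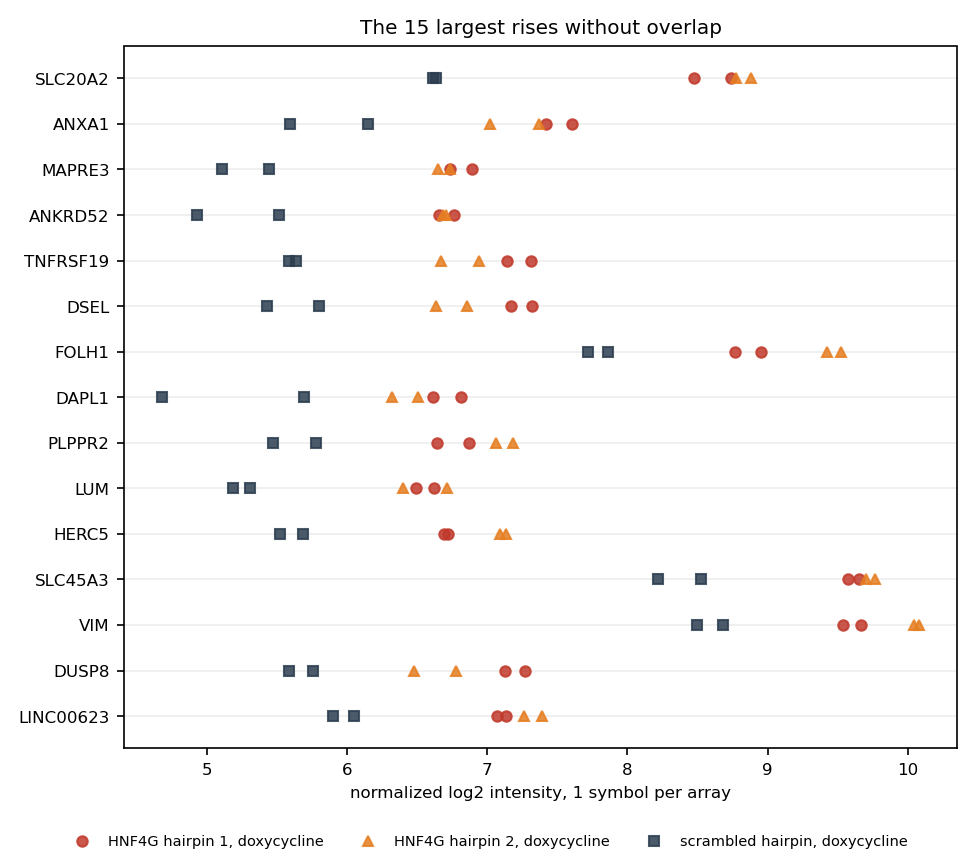
Normalized log2 intensity of the 15 genes with the largest rises past the threshold among those whose groups did not overlap, drawn as for the falls, with hairpin 1 as circles, hairpin 2 as triangles and the scrambled hairpin as squares. By this choice both scrambled arrays sit to the left of all 4 hairpin arrays, and the 2 scrambled arrays of DAPL1 stand furthest apart, at 5.69 and 4.68.

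Of 35 measured androgen receptor activated genes 6 rose and 1 fell, with a median difference of 0.16. SLC45A3, a prostate-enriched sugar transporter, had 9.58 and 9.65 with hairpin 1 and 9.70 and 9.77 with hairpin 2, against 8.53 and 8.22 with the scrambled hairpin. Its difference of 1.30 was present at 1.39 without doxycycline. GNMT, TSC22D3, TMPRSS2, PLPP1 and PTGER4 rose by 0.58 to 0.91. The difference of PLPP1 was 0.24 with hairpin 1 and 0.92 with hairpin 2, and the hairpins differed by direct test (adjusted p = 0.032). ELL2 fell by 0.53. Its difference was -0.97 with hairpin 1 and -0.09 with hairpin 2, and the hairpins differed by direct test (adjusted p = 0.0116), its arrays overlapped the scrambled ones, and its call was lost when either scrambled doxycycline array was left out. By single genes, GNMT and TSC22D3 lost the call without the scrambled doxycycline array of replicate 1, with differences of 0.877 and 0.557. TMPRSS2, PLPP1 and PTGER4 lost it when either scrambled doxycycline array was left out, with differences of 0.515 to 0.705. The count of rises was 1 without the scrambled doxycycline array of replicate 1 and 3 without that of replicate 2. Of 19 androgen repressed genes, 5 fell and 3 rose. Those that fell included UGT2B15 and UGT2B17 and the amine-metabolizing enzymes DDC and MAOA, and those that rose were FOLH1, TNFRSF19 and GRIN3A. With either scrambled doxycycline array left out, 3 of this list fell and 2 rose.

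Of 7 measured luminal prostate markers, ACP3 and TMPRSS2 rose by 1.00 and 0.63 and KRT8 fell by 0.51. Of 8 neuroendocrine markers, CHGB, a granin of secretory granules, rose by 0.74, and SYP and SCG3 differed by 0.30 and -0.09 without passing. KRT8 and TMPRSS2 lost their calls when either scrambled doxycycline array was left out, ACP3 without that of replicate 1 (adjusted p = 0.153) and CHGB without that of replicate 2 (adjusted p = 0.053). The summed intensity of the 8 neuroendocrine markers was 5372 to 5729 in the hairpin arrays and 4416 to 4537 in the scrambled arrays. That of the 7 luminal markers overlapped, at 4034 to 4619 and 4158 to 4837. Such sums are weighted to the brightest members. The median difference of the neuroendocrine list was 0.03, and -0.05 with scaling to a common median. Of 10 markers of fibroblasts and stroma, 5 were measured and LUM and VIM rose. LUM had 6.40 to 6.71 in the hairpin arrays with doxycycline and 6.23 to 6.79 without. In the scrambled arrays it had 5.31 and 5.18 with doxycycline, against 6.04 and 6.17 without. The defining collagens COL1A1, COL1A2 and COL3A1, with FN1 and PDGFRB, were undetected on all 6 doxycycline arrays. The summed intensity of the 5 measured stroma markers was 1025 to 1404 in the hairpin arrays and 585 to 657.5 in the scrambled arrays. This sum too is weighted to bright members, VIM among them. The other measured members DCN, TAGLN and ACTA2 differed by 0.498, 0.181 and -0.205 without passing. Of 10 blood and immune markers 8 were undetected on all 6 arrays, PTPRC among them.

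Interferon response genes rose in 5 of 29 measured members, with 0 falls and a median of 0.12. HERC5, the ligase that attaches the ubiquitin-like protein of the interferon response, had 6.72 and 6.69 with hairpin 1 and 7.13 and 7.09 with hairpin 2, against 5.52 and 5.69 with the scrambled hairpin. Its difference of 1.31 was 1.11 without doxycycline. IFIH1, a sensor of double-stranded RNA, had 5.90 and 5.95 with hairpin 1 and 6.82 and 6.94 with hairpin 2, against 5.65 and 5.58 with the scrambled hairpin, so that its difference of 0.79 came mostly from hairpin 2. MX1, IFI35 and HERC6 rose by 0.63 to 0.85. MX1 and HERC6 lost their calls when either scrambled doxycycline array was left out, with differences of 0.62 to 1.08. IFI35 lost its call without that of replicate 2, with a difference of 0.52. With either scrambled doxycycline array left out 3 members rose, and scaling to a common median gave 4 rises and 1 fall. In HLA class I presentation 1 of 17 genes rose, HLA-B by 0.61, which did not pass without the scrambled doxycycline array of replicate 1 (adjusted p = 0.388).

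Histone genes rose in 5 of 30 measured members, and in 3 when either scrambled doxycycline array was left out. The median was 0.14, and -0.01 with scaling to a common median. Values were higher with hairpin 2. Against the scrambled hairpin, hairpin 2 alone had 6 higher histone genes and hairpin 1 had 0, and 4 histone genes were lower with hairpin 1 than with hairpin 2 by direct test. H2BC21 had 7.34 and 7.73 with hairpin 1 and 9.44 and 9.78 with hairpin 2, against 7.25 and 7.67 with the scrambled hairpin. The hairpin 1 arrays thus overlapped the scrambled arrays. Near-identical histone copies may share probes.

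Cholesterol and fatty acid synthesis had 4 falls among 31 genes (INSIG1, FADS1, ME1 and SQLE, by 0.51 to 0.63), and 0 passed when either scrambled doxycycline array was left out. Hypoxia and glycolysis genes divided, with 3 rises (ANKRD37, ADM and ERO1A) and 2 falls (CA12 and PFKP) among 36. ADM had 7.66 to 7.89 in the hairpin arrays with doxycycline and 7.78 to 8.02 without. Its scrambled arrays had 7.38 and 6.94 with doxycycline, against 7.77 and 7.86 without. ANKRD37 had 5.80 to 5.98 in the hairpin arrays with doxycycline and 5.73 to 6.30 without. Its scrambled arrays had 4.56 and 5.06 with doxycycline, against 5.46 and 5.45 without. The rises numbered 2 without the scrambled doxycycline array of replicate 1 and 1 without that of replicate 2. In the cell cycle list 0 of 75 genes passed by limma, with a median of -0.13, and 8 had an unadjusted p under 0.05, all lower. Without background correction and on the series matrix values 3 genes of the list passed, all lower. The p53 target, unfolded protein and cytosolic ribosomal protein lists, with 25, 30 and 63 genes, also had 0 calls by limma, and 1, 5 and 3 genes at an unadjusted p under 0.05. Of all genes tested, 20.2% had an unadjusted p under 0.05, a larger share than in any of these lists or in the cell cycle list. In RNA silencing and microRNA processing, 2 of 13 genes fell for the pooled hairpins, ELAVL1 and DICER1. ELAVL1 differed by 0.42 with hairpin 1 and by -2.61 with hairpin 2. The list had 0 falls with hairpin 1 alone and 3 with hairpin 2. ATF5 was the 1 stress response gene of 41 to pass, lower by 1.00, and NDUFB3 the 1 of 52 mitochondrial genes, lower by 0.52. Beside HNF4G, SOX9 fell by 0.60 and NR5A2 rose by 0.62 among 9 measured gastrointestinal transcription factors. The calls of NDUFB3, SOX9, NR5A2 and DICER1 were lost when either scrambled doxycycline array was left out, and those of ATF5 and ADM without that of replicate 2 (adjusted p = 0.109 and 0.222).

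**Figure D4:**
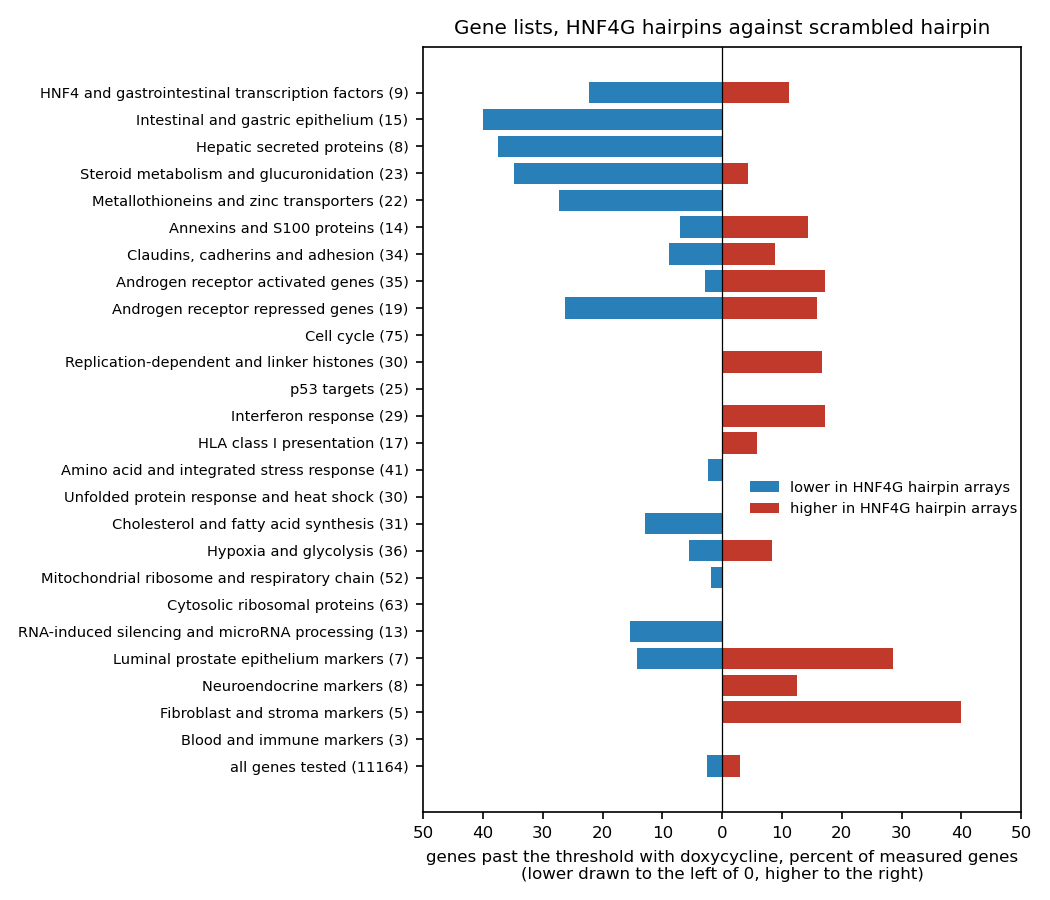
Percent of measured genes of each list past the threshold with doxycycline, lower in the HNF4G hairpin arrays to the left of 0 and higher to the right, with the number of measured genes in parentheses. The share of lower genes was 40.0% in the intestinal and gastric list, 37.5% in the hepatic list and 34.78% in the steroid list, against 2.56% of all genes tested. The lists were chosen with earlier results of these data known, so these shares are not independent of the choice.

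The same comparison without doxycycline, on other arrays of the same sublines, had 95 calls (0.851%), 34 higher (0.305%) and 61 lower (0.546%), and 20.3% of genes had no overlap between those arrays. Of the 622 genes called with doxycycline, 66 were among those 95 in the same direction and 0 in the opposite one, which is 10.6% of the 622 and 69.5% of the 95. The sign agreed without doxycycline in 469 of the 622 (75.4%), against 55.8% of all genes tested. Median differences of the 336 higher genes were 0.69 with doxycycline and 0.18 without, and those of the 286 lower genes were -0.72 and -0.22. Large differences already present without induction included AKR1C2 (-2.16), UGT2B17 (-1.99), SLC20A2 (1.83) and SLC45A3 (1.39).

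A direct test of the change between the 2 states, the difference with doxycycline minus that without, passed for 30 genes (0.269%), 4 with a positive change (0.0358%) and 26 with a negative one (0.233%), and 29 of them were among the 622. Lower genes made up 25 of the 29. ASB9 differed by -2.65 with doxycycline and -0.62 without, MUC13 by -2.53 and -0.57, and PON1 by -2.05 and -0.48. AKR1C3 had the widest change of these, -2.57 (adjusted p = 0.00363). AKR1C4, UGT2B15, BAIAP2L2, MYO1A and CLDN11 passed in both states and in the change as well. The changes of AKR1C3, ASB9, MUC13 and PON1 passed in all 12 fits that left out 1 array and under all 10 other settings, and that of MYO1A in all 12 and in 8 of 10. The change of UGT2B15 (adjusted p = 0.032) passed in 2 of the 12 fits and under 7 of the 10 settings, with p-values up to 0.153, and was lost when either scrambled doxycycline array was left out. Those of CLDN11 and BAIAP2L2 passed in 1 and 7 of the 12, and that of AKR1C4 was lost without the scrambled doxycycline array of replicate 1 (adjusted p = 0.0655). Among the higher genes, ANKRD52, PLPPR2, MAPRE3 and the glycosyltransferase GALNT1 passed, with changes of 1.94, 1.67, 1.48 and 1.20. The scrambled arrays of all 4 genes were lower with doxycycline than without. ANKRD52 had 6.40 to 6.74 in the uninduced hairpin arrays, against 7.02 and 7.05 in the uninduced scrambled arrays, which stood at 4.93 and 5.52 with doxycycline. In the scrambled arrays PLPPR2 had 5.47 and 5.78 with doxycycline, against 6.98 and 6.96 without, and GALNT1 6.75 and 6.61, against 7.72 and 7.46. MAPRE3 had 5.44 and 5.11 there, against 6.44 and 6.59 without doxycycline. The change of ANKRD52 passed in all 12 fits that left out 1 array. PLPPR2 lost it without the scrambled doxycycline array of replicate 1 (adjusted p = 0.0604), and MAPRE3 and GALNT1 without the uninduced scrambled array of replicate 2 and of replicate 1 (0.0521 and 0.0515). The remaining 532 of the 622 genes passed neither without doxycycline nor in the change.

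**Figure D5:**
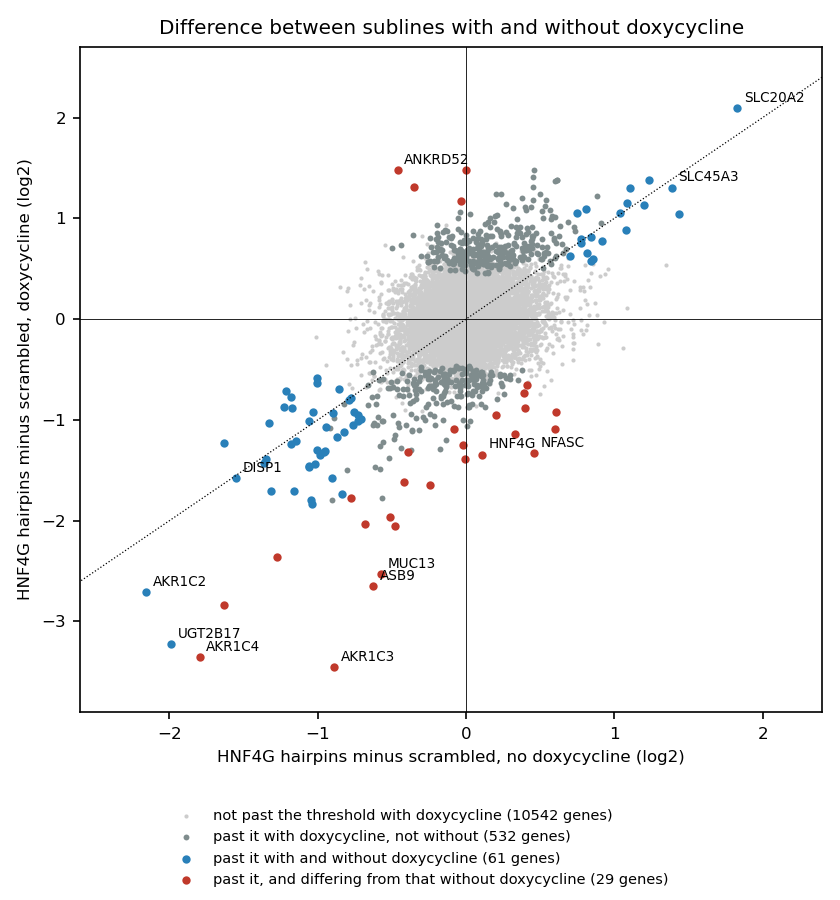
Difference between the HNF4G hairpin sublines and the scrambled subline with doxycycline (vertical axis, log2) against the same difference without it (horizontal axis, log2), one point per gene tested, with equality as a dotted line. Blue points (61 genes) passed in both states without a tested change, red points (29 genes) passed with doxycycline and in the change, and dark grey points (532 genes) passed with doxycycline alone.

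The hairpins were also set against the scrambled hairpin one at a time. Hairpin 1 had 475 calls (4.25%), 222 higher (1.99%) and 253 lower (2.27%). Hairpin 2 had 683 (6.12%), 345 higher (3.09%) and 338 lower (3.03%), and both comparisons share the scrambled arrays. The direct difference between the hairpins, which does not use those arrays, had 276 calls (2.47%), 133 higher with hairpin 1 (1.19%) and 143 lower (1.28%). Of the 622 genes called for the pooled hairpins, 56 differed between hairpins, and 5 had opposite signs with each. AKR1C2, UGT2B15, MUC13, BAIAP2L2, PON1 and MYO1A differed between the hairpins by no more than 0.11, with standard errors of 0.14 to 0.20. Of these, UGT2B15, MUC13 and MYO1A were undetected on every hairpin array with doxycycline, so their small differences cannot show that the hairpins agreed. Other large falls differed more between the hairpins, ASB9 by 0.67, AKR1C3 by -0.60 and CLDN11 by -0.58, without passing the direct test.

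ELAVL1, an RNA-binding protein that stabilizes messenger RNAs, was the widest hairpin difference. It had 7.64 and 7.57 with hairpin 1 and 4.32 and 4.83 with hairpin 2, against 6.99 and 7.39 with the scrambled hairpin. Hairpin 1 exceeded hairpin 2 by 3.03 ± 0.20 (adjusted p = 6.86e-06), so the pooled difference of -1.09 describes neither hairpin. SLC39A6, a zinc importer, had 10.28 and 10.07 with hairpin 1 and 8.43 and 8.57 with hairpin 2, against 9.71 and 9.71 with the scrambled hairpin. YRDC, which takes part in transfer RNA modification, had 10.37 and 10.36 with hairpin 1 and 8.84 and 8.87 with hairpin 2, against 10.79 and 10.44 with the scrambled hairpin. The homeodomain gene CUX1 and APPBP2 were likewise higher with hairpin 1, by 1.43 and 1.35.

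In the other direction, CPLX3, a complexin of synaptic vesicle release, had 4.51 and 4.80 with hairpin 1 and 7.22 and 7.15 with hairpin 2, against 4.37 and 4.72 with the scrambled hairpin. The gene was as high in the uninduced hairpin 2 subline, at 7.21 and 6.75, against 4.59 and 4.61 in the uninduced scrambled subline. SMCO4 had 9.28 and 9.25 with hairpin 1 and 10.79 and 10.53 with hairpin 2, against 10.54 and 10.67 with the scrambled hairpin, so that it was lower with hairpin 1. The call of SMCO4 for the pooled hairpins (-0.64) was lost when either scrambled array was left out. TMED5, of the same family of cargo receptors as TMED6, and the phosphodiesterase SMPDL3B were lower with hairpin 1 than with hairpin 2 (differences of -1.37 and -1.35), and neither passed for the pooled hairpins.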

How the data were processed

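RNA from 12 arrays in 6 groups of 2 was used, and the comparison concerned the 6 doxycycline arrays. The deposited table gives raw probe intensity, and beside it the detection p-value the authors' software computed. The deposited series matrix holds the authors' normalized log2 values, used as an alternative. Per the submitters' processing notes BeadStudio and Partek were used, with versions not given in the sources used here. After 1479 blank lines were left out, limma 3.58.1 in R 4.3.3 (statmod 1.5.0) applied neqc (background by detection p, offset 16, quantile normalization, log2). A probe was kept if 2 or more arrays detected it (p below 0.01), which left 19172. The annotation gave 1 gene symbol for 30113 of the 47323 probes, several for 8 and no entry for 17202, and 30074 matched the reference by gene ID. The brightest probe stood for each of 11164 genes.

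limma fitted all 6 groups (6 residual and 7.91 prior degrees of freedom). The main contrast was the mean of the 2 hairpin groups minus the scrambled group. Tests were two-sided, with Benjamini-Hochberg adjustment over all genes and a threshold of 0.05. The fit was tested on simulated data. Named genes were HNF4G, HNF4A, SPINK1 and 3 control genes, the 15 largest falls and rises with no overlap of hairpin and scrambled arrays, the largest in each further contrast, and the 4 (or fewer) of smallest p in each list. Further list members that passed were named after their values were seen. The members, lists and rule were chosen with earlier results of these data known. The number of arrays limits the precision. Alternatives covered background, normalization, filter, probe choice, prior, weights, replicate block, sample set and leaving out each array.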

Additional observations from a re-analysis of the deposited data

Results flagged for a closer look

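Several genes differed between the 2 HNF4G hairpins under doxycycline in the direct test, given here as hairpin 1 minus hairpin 2 on the log2 scale. CPLX3 (-2.53), H2BC21 (-2.07), SMCO4 (-1.39), MT1H (-1.05), H2AC18 (-0.99) and IFIH1 (-0.95) were lower with hairpin 1. ELAVL1 (3.03), YRDC (1.51) and INSIG1 (0.71) were higher with hairpin 1.

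For other genes the difference between HNF4G hairpin and scrambled sublines was not the same with and without doxycycline, by the test of that change. The values are the difference with doxycycline minus the difference without. The changes were -2.57 for AKR1C3, -2.03 for ASB9, -1.96 for MUC13, -1.79 for NFASC, -1.70 for ELAVL1, -1.57 for PON1 and -1.56 for AKR1C4. HNF4G and A1CF changed by -1.45 each, MT1H by -1.41, MYO1A by -1.36, MT1G by -1.23 and UGT2B15 by -1.20. BAIAP2L2, CLDN11 and ALB changed by -1.09, -1.01 and -0.93. The changes of UGT2B15, A1CF, CLDN11, MT1G and ALB were lost when either scrambled doxycycline array was left out. Those of AKR1C4 and PLPPR2 were lost without that of replicate 1. The change of ALB passed in 0 of the 12 fits without 1 array, and not with cyclic loess normalization or array weights. BAIAP2L2 and MT1G passed in 7 of the 12 fits without 1 array, and NFASC did not pass with the mean of a gene's probes (adjusted p = 0.248). HNF4G lost the call without the uninduced scrambled array of replicate 2 (adjusted p = 0.0701). Changes in the other direction were 1.94 for ANKRD52, 1.67 for PLPPR2, 1.48 for MAPRE3 and 1.20 for GALNT1.

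Among the 4405 kept probes with no single gene name, which entered no test of genes, 55 were higher and 64 lower in the HNF4G hairpin arrays with doxycycline in a fit over all 19172 kept probes. That is 2.70% of them.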

How the results depend on the processing

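No single-gene result of 164 reversed under any setting, and of 76 named genes called for the pooled hairpins 50 passed in all 12 fits without 1 array and 49 under all other alternatives. Each count below names the total, then higher and lower calls in the HNF4G hairpins where they are given. For the main comparison, other settings gave 511 to 918 calls against 622, except the 222 (109 and 113) with the 4 hairpin arrays as 1 group. Leaving out 1 array gave 214 to 616 (96 to 330 and 118 to 289). Hairpin 1 ranged over 154 to 451 (57 to 209 and 97 to 242) and had 339 higher with a trended robust prior; hairpin 2 ranged over 181 to 680 (75 to 341 and 106 to 343). The difference between hairpins (276) became 564 (303 and 261) without background correction, 599 (319 and 280) on the series matrix, 613 (333 and 280) with the trended prior, 425 (203 and 222) with array weights, 153 (84 and 69) on the 6 doxycycline arrays in 3 groups, and 27 to 272 (15 to 139 and 12 to 133) without 1 array. The uninduced comparison (95) became 159 (73 higher), 182 (82 and 100) and 200 (98 and 102) without background correction, on the series matrix and with the trended prior, and 22 to 99 (8 to 47 and 14 to 64) without 1 array. The change between states (30) became 118 (48 and 70), 126 (52 and 74) and 131 (53 and 78) under the same settings, and 14 to 37 (3 to 17 and 11 to 23) without 1 array; its higher calls were 9, 11 and 8 with the stricter filter, the mean of probes and the replicate block. With the replicate number as a block the main comparison had 593 calls (316 and 277). Deviations of same-numbered arrays correlated at -0.03 to 0.07 over 15 pairs of groups, so the numbers were not taken as pairs. The cause of these shifts was not tested. The slide block was not run, since the headers give no slide. Dim genes limit the folds, which are bounds where a group was undetected.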

Other observations

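Groups of genes outside the lists also differed between the HNF4G hairpin and scrambled arrays with doxycycline. They were picked after their values were seen, so their counts describe the choice. Of 8 GAGE cancer-testis antigens tested, whose copies are near-identical in sequence, 6 were lower past the threshold, with a median difference of -1.06. GAGE12C, for example, had 5.12 and 5.48 with hairpin 1 and 5.42 and 5.27 with hairpin 2, against 7.07 and 6.57 with the scrambled hairpin. Both CT45 genes tested were lower, CT45A3 by a difference of -1.05. Some genes for secreted proteins were lower. Angiogenin (ANG), a secreted ribonuclease, had 9.98 and 9.83 with hairpin 1 and 9.87 and 10.06 with hairpin 2, against 11.26 and 11.39 with the scrambled hairpin, and its difference without doxycycline was -0.005. HGF, the ligand of the MET receptor, and BMP2 had differences of -1.71 and -1.37, and the neuropeptide genes CALCA and GAL of -1.03 and -0.87. Without doxycycline the differences were -1.32 for HGF (adjusted p = 0.00186), -1.33 for CALCA (adjusted p = 0.00248), -0.52 for BMP2 and 0.01 for GAL.

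NCAM2, CNTNAP2, DLG2 and NETO1 were higher, with differences of 1.15, 0.86, 0.86 and 0.88. NFASC (-1.33) and SYNGR3 (-0.87) were lower. SYNGR3 differed by -0.28 with hairpin 1 and by -1.47 with hairpin 2, and the hairpins differed by direct test (adjusted p = 0.0022). Among transcription regulators EPAS1 (-1.10), GATA3 (-0.92) and PAX8 (-0.79) were lower, and ELF5 (1.14), DACH1 (1.12), TFAP2C (0.96) and RORB (0.88) were higher. Without doxycycline NETO1 differed by 1.08, GATA3 by -0.76 (adjusted p = 0.0364) and ELF5 by 1.20. In hedgehog signalling the receptor PTCH1 was higher (1.04) and DISP1, which releases the ligand, lower (-1.58). Both were at a similar difference without doxycycline, 1.43 and -1.55.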
